A study of Caenorhabditis elegans with 4 samples.

Results

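The peaks described here are the sites on the X chromosome of Caenorhabditis elegans that were called after chromatin immunoprecipitation and sequencing (ChIP-seq) of the transcription factor NHR-237. They were chosen by chromosome name alone, as every row of the peak lists placed on X. The combined list, made from both libraries and taken as the main set, held 192 such peaks of 1119, against 927 on the 5 autosomes. The list of ChIP replicate 1 held 3598 X peaks of 16621, and the list of ChIP replicate 2 held 3632 of 18457. All coordinates are in WormBase WS220 and count from 1.

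The animals were hermaphrodites of strain OP228 at the first larval stage, labelled L1 26dC, a label whose last part is not explained in the sources used here. They carried the unc119(ed3) mutation and, brought in by bombardment, the transgene wgIs228, in which nhr-237 is joined to TY1, EGFP and FLAG tags beside unc119. The series holds 2 ChIP libraries, made with anti-GFP antibodies, and 2 input libraries from the same strain and stage, so tagged transgene and mutation were common to all 4 samples. The input libraries were not analysed here and no untagged strain is among the samples, so enrichment from sources other than NHR-237 was not set apart. Nothing states that the replicates were separate cultures, and read depth is unknown from peak lists.

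NHR-237 belongs to the nuclear hormone receptors, transcription factors that bind DNA through zinc fingers and, in many family members, respond to small lipophilic ligands. The family is greatly expanded in nematodes. The X chromosome of C. elegans differs from the autosomes in several known ways: in hermaphrodites a condensin-based dosage compensation complex binds along it and lowers its transcription, it carries few genes expressed in the germ line, and it lacks the sharp contrast between gene-rich centres and repeat-rich, frequently recombining arms that the autosomes show. Worm ChIP-seq data also contain sites that very many transcription factors share. None of these features was measured in the data used here, and no gene names are given, since an annotation of WS220 was not used.

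The best-ranked X sites were narrow and were near the top of both replicate lists. Peaks are ranked by the number in the authors' files, with 1 taken as the best, because the deposited score ties for many of them. Number and score did not always give the same order. On X the combined score rose from 2.54 at number 521 to 2.68 at number 714, then was 2.46 at number 721. The words best, strong and weak refer to the number. The highest score of 3.02 was shared by 98 X peaks (51.0%) and by 421 autosomal peaks (45.4%), with the largest share on chromosome III (54.9%). The best X peak was number 3 of the combined list, which spanned 152 bp from 9465710 to 9465861, with rank 9 in replicate 1 and rank 2 in replicate 2. Number 7 lay at 5841169 to 5841390 and ranked 1 in replicate 1 and 25 in replicate 2. The top site of replicate 1 and the second site of replicate 2 were thus both on X.

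Number 8 lay at 4209102 to 4209368, with ranks 6 and 18 in replicates 1 and 2. Number 10, at 2996992 to 2997170, had ranks 13 and 5 in the same order, and number 11, at 16681953 to 16682130, had ranks 8 and 21. Number 12, at 12363018 to 12363177, had ranks 12 and 19. Numbers 10, 11 and 12 were far apart, at 16.92%, 94.16% and 69.78% of the length of X counted from its left end. Number 17, at 11093975 to 11094184, had ranks 20 and 14 in replicates 1 and 2, and number 18, at 8036272 to 8036557, had ranks 15 and 26. Number 21, at 806534 to 806737, was the leftmost of the 15 best X sites, with ranks 32 and 9.

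Number 24, at 13700757 to 13700911, had ranks 46 and 13 in replicates 1 and 2, and number 29, at 6296412 to 6296632, had ranks 14 and 48. Number 33, at 14169516 to 14169965, had ranks 47 and 30 and was the first X site down the list with the usual width of 450 bp. The remaining sites of the 15 best also had this width. They were number 34, at 5429291 to 5429740 (ranks 27 and 49), number 36, at 11937243 to 11937692 (ranks 31 and 52), and number 38, at 1626912 to 1627361 (ranks 36 and 38). All of these 15 sites were within the first 52 peaks of both libraries. Since the combined list was made from these libraries, high ranks in both are no independent check of the sites.

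Peaks narrower than 450 bp numbered 13 on X (6.77%) and 36 on the autosomes (3.88%). All 13 were numbered 52 or lower on X, whereas the narrow autosomal peaks went up to number 189. Their median width was 204 bp on X and 156.5 bp on the autosomes, and the narrowest was 152 bp on X and 112 bp on the autosomes. Single autosomes differed, with narrow shares from 1.16% on chromosome V to 5.21% on chromosome IV. Chromosome III was near X, with a share of 5.18%, a median narrow width of 211 bp and narrow peaks up to number 74. These widths were set by the authors' caller and carry no test.

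Overall density on X was close to that of the autosomes in the combined list. X carried 10.8 peaks per Mb and the autosomes 11.2 per Mb. The ratio was 0.965, and its departure from equal density did not pass the test (exact binomial, adjusted p = 0.85). All p-values are adjusted by Benjamini-Hochberg over the 11 tests made on X peaks, and all treat peaks as independent although many are neighbours. The replicate lists were denser on X than on the autosomes. Their median scores on X were 0.0804 and 0.0606, against 3.02 in the combined list. Scores were not shown to share a scale across lists, since they partly followed the number within a list. For example, number 583 scored 2.59 both in the combined list and in replicate 1. Replicate 1 had 203 peaks per Mb on X and 158 on the autosomes, 1.29 times as many (exact binomial, adjusted p = 5.3e-38). Replicate 2 had 205 peaks per Mb on X and 180 on the autosomes, 1.14 times as many (exact binomial, adjusted p = 2.2e-11). In windows of 1 Mb, the variance over the mean of the counts was 3.98 on X in replicate 1 and 2.33 in replicate 2. It was between 4.32 and 12.4 on single autosomes in these lists, while a Poisson count has 1. The p-values of the full replicate lists, here and below, are therefore likely too small. Chromosome IV was close to X in replicate 2, at 204 peaks per Mb, but not in replicate 1, at 158 per Mb. Among peaks that scored at least 1.36, the lowest combined score, X held 259 of 1365 in replicate 1 (19.0%) and 131 of 823 in replicate 2 (15.9%), while X is 17.7% of the length. This limit shortens the lists and is not a common measure of strength.

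X differed from the autosomes in where along the chromosome its peaks lay, and this was the only result of the 11 tests past the threshold of 0.05. The central part, from 25% to 75% of the length, held 89 of 192 X peaks (46.4%, 95% Wilson interval 39.4 to 53.4) and 560 of 927 autosomal peaks (60.4%, interval 57.2 to 63.5). The odds ratio, X over autosomes, was 0.567 (interval 0.409 to 0.784; Fisher's exact test, adjusted p = 0.0044). Each autosome had a higher central share than X in the combined list, from 56.0% on chromosome III to 67.6% on chromosome V.

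In density, the difference came from both parts of the chromosome. The central part had 10.0 peaks per Mb on X and 13.6 per Mb on the autosomes, whereas the outer parts had 11.6 per Mb on X and 8.89 per Mb on the autosomes. Of the 4 stretches of 25% of its length, the rightmost was the densest on X, with 61 peaks or 13.8 per Mb, and the same stretch of the autosomes had 9.16 per Mb. The leftmost 25% held 42 peaks or 9.48 per Mb on X and 8.63 per Mb on the autosomes. The left and right ends of X did not differ past the threshold, with a left to right ratio of 0.689 (exact binomial, adjusted p = 0.17). In the full replicate lists that ratio was closer to 1, at 0.870 in replicate 1 (785 against 902 peaks; exact binomial, adjusted p = 0.026) and 0.867 in replicate 2 (839 against 968; exact binomial, adjusted p = 0.014).

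**Figure D1:**
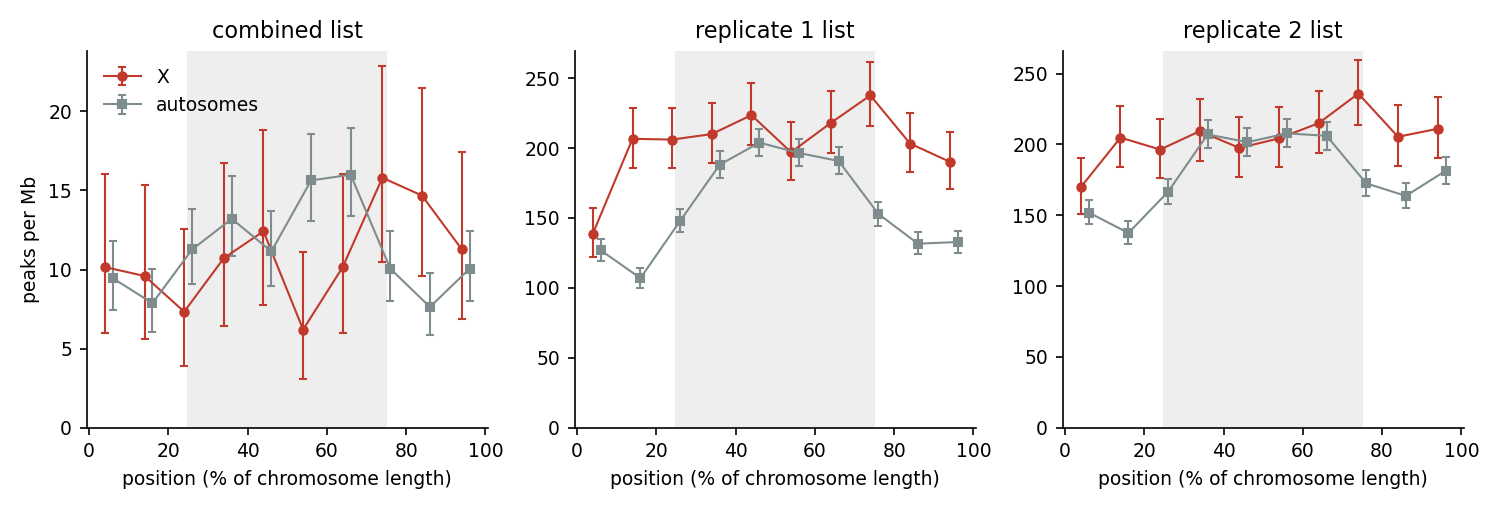
Peaks per Mb in each 10% of chromosome length (x axis, from the left end) for X (red circles) and the 5 autosomes together (grey squares), in the combined, replicate 1 and replicate 2 lists; bars are exact Poisson 95% intervals, covering the counting of peaks only, and the shaded band is the central part. In the combined list X is lowest from 50% to 60% of the length, with 6.21 per Mb while the autosomes have 15.6, and highest from 70% to 80%, with 15.8 per Mb while the autosomes have 10.1.

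The replicate lists had the same direction with smaller differences. In replicate 1 the central part held 53.1% of X peaks and 59.8% of autosomal peaks (odds ratio 0.762; Fisher's exact test, adjusted p = 9.6e-12). In replicate 2 it held 50.2% of X peaks and 55.9% of autosomal peaks (odds ratio 0.797; Fisher's exact test, adjusted p = 1e-08). The outer parts of X had 190 peaks per Mb in replicate 1 and 204 per Mb in replicate 2, against 127 and 158 per Mb in the outer parts of the autosomes. The central parts were closer, with 216 and 206 per Mb on X, against 189 and 201 on the autosomes. The higher density of X in the replicate lists was therefore mainly in its outer parts. In replicate 2 chromosome IV was close to X, with 50.9% of its peaks central. It had 200 peaks per Mb in its outer parts and 207 in its central part there. In replicate 1 chromosome IV was further from X, with 55.3% central and 141 per Mb in its outer parts.

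Position on X also varied with rank, but the difference did not pass the test. Of the 61 X peaks numbered 1 to 279, which are the first 25% of the combined list, 23 were central (37.7%, interval 26.6 to 50.3). Of the other 131 X peaks, 66 were central (50.4%, interval 41.9 to 58.8; odds ratio 0.598, interval 0.304 to 1.16; Fisher's exact test, adjusted p = 0.20). In the upper part of the list, peaks 1 to 559, the central share was 39.8% on X and 58.6% on the autosomes (odds ratio 0.469; Fisher's exact test, adjusted p = 0.0071). Among peaks 560 to 839 the shares were 62.2% on X and 59.7% on the autosomes, and among peaks 840 to 1119 they were 48.1% on X and 64.9% on the autosomes.

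In windows of 1 Mb, combined peak counts varied less on X than over the autosomes. The 17 full windows of X held a median of 10 combined peaks and ranged from 6 to 17, and the 80 full autosomal windows held a median of 10.5 and ranged from 2 to 26. The variance over the mean of the window counts was 0.828 on X, below the value of 1 of a Poisson count. It was 0.966 on chromosome IV and between 1.89 and 2.93 on chromosomes I, II, III and V. No window of X or of chromosome III had 5 or fewer peaks, while 10 windows of the other autosomes did. These are descriptions of neighbouring windows, which are not replicates, and carry no test.

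**Figure D2:**
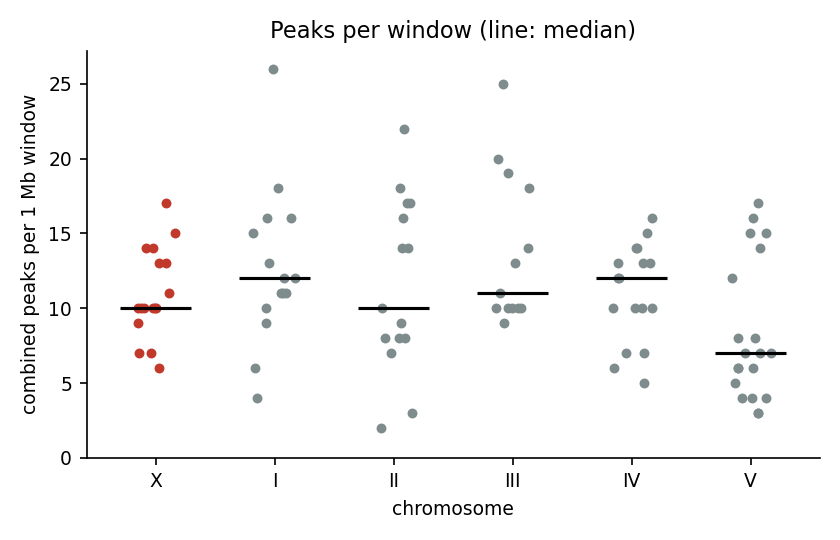
Combined peaks in each full 1 Mb window (y axis) of X (red) and of each autosome (grey); a point is a window and the line is the median of the chromosome. The X windows lie between 6 and 17 peaks, while chromosome I reaches 26 and chromosome II goes down to 2.

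The densest window of X was 14 to 15 Mb, with 17 combined peaks, of which 7 were numbered 279 or lower. It included number 33 and also number 39, at 14525748 to 14526007, with ranks 28 and 39 in replicates 1 and 2. The next window, 15 to 16 Mb, held 15 peaks, and from 12 to 17 Mb every window held 13 or more. The emptiest was 3 to 4 Mb, with 6 combined peaks, and the replicate lists had 207 and 183 peaks there, against X medians of 207 and 205. Across the 17 X windows, combined counts gave a Spearman's rho of 0.23 with replicate 1 counts and 0.55 with replicate 2 counts, and the replicates gave 0.56 with each other. Over the 80 autosomal windows the same values were 0.55, 0.55 and 0.80. The lists come from the same libraries and share any regional bias, so these values are descriptive.

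The longest stretch of X without a combined peak ran for 629 kb, from 8836223 to 9465709, and ended at the best X peak, number 3. The second, of 441 kb, ran from 6296633 to 6737590 and began right after number 29. Stretches over 300 kb numbered 6 of 191 on X (3.14%) and 49 of 922 on the autosomes (5.31%), and the longest autosomal stretch was 1069 kb. The median distance between adjacent peaks was 56.9 kb on X and 53.1 kb on the autosomes. The first combined peak of X, number 263, began 353 kb from the left end, and the last, number 475, ended 172.5 kb before the right end, taking the largest peak end in any list, 17717295, as the end of X.

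X sites were frequent among the very best ranks, and less so further down the list. X held 10 of combined peaks 1 to 25 (40.0%, interval 23.4 to 59.3), 17 of peaks 26 to 100 (22.7%, interval 14.7 to 33.3) and 34 of peaks 101 to 279 (19.0%). It held 15% of peaks 280 to 559, 13.2% of peaks 560 to 839 and 18.6% of peaks 840 to 1119. The share of peaks numbered 279 or lower was 61 of 192 on X (31.8%, interval 25.6 to 38.7) and 218 of 927 on the autosomes (23.5%, interval 20.9 to 26.4). This difference did not pass the test after adjustment (odds ratio 1.51, interval 1.06 to 2.15; Fisher's exact test, unadjusted p = 0.022, adjusted p = 0.079). Chromosome III had a similar share to X, at 63 of 193 (32.6%). With peaks within 2 kb merged into single regions the difference passed, at 34.1% on X and 23.1% on the autosomes (Fisher's exact test, adjusted p = 0.017). It did not pass for the first 100 peaks, which held 14.1% of X peaks and 7.87% of autosomal peaks (Fisher's exact test, adjusted p = 0.064), nor for peaks 1 to 559, which held 53.6% and 49.2% (Fisher's exact test, adjusted p = 0.42). In the full replicate lists the first 25% held slightly smaller shares of X peaks than of autosomal peaks, at 24.2% against 25.2% in both lists.

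**Figure D3:**
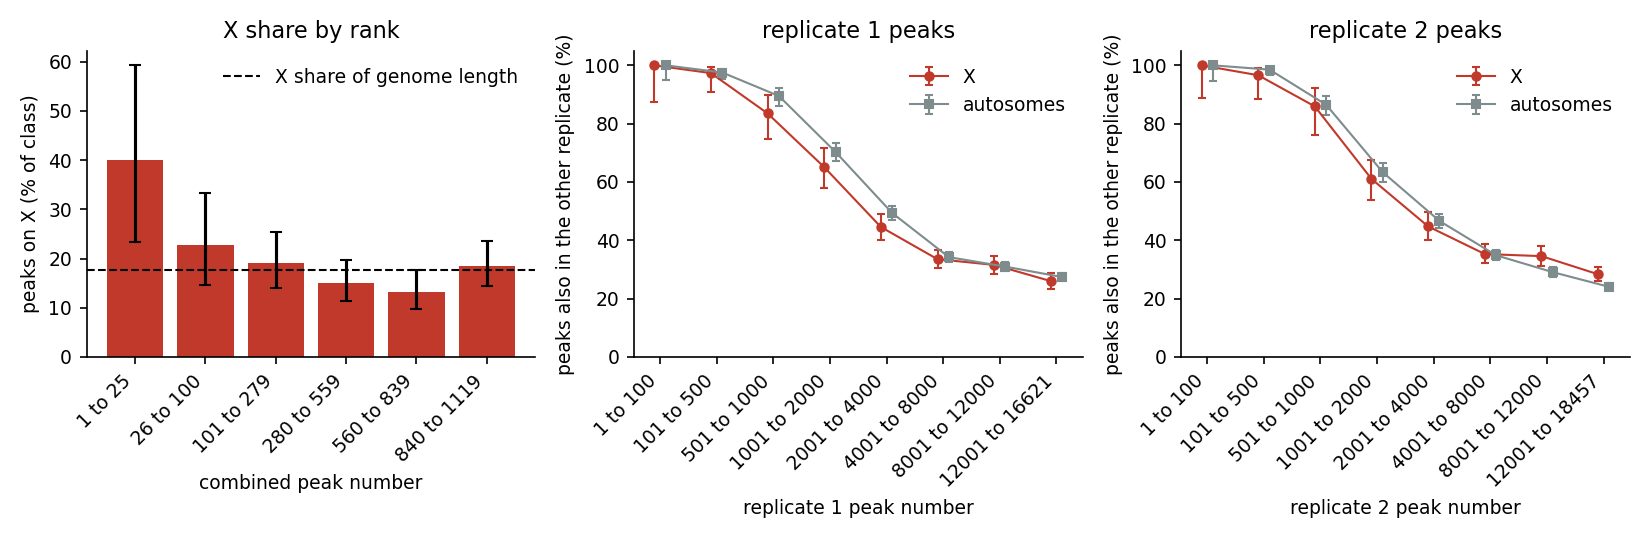
Left, peaks on X as a percentage of each class of combined peak numbers, with the X share of genome length dashed; middle and right, the percentage of replicate 1 and replicate 2 peaks that overlap a peak of the other replicate, by class of peak number, for X (red) and autosomes (grey). Bars are 95% Wilson intervals; the X share is 40.0% for peaks 1 to 25 and 13.2% for peaks 560 to 839, and the shared part falls with peak number on X and on the autosomes.

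X peaks were found with close neighbours about as often as autosomal peaks. A smaller share of the groups of close peaks on X held 2 or more strong peaks, here those numbered 559 or lower. In the combined list 24 of 192 X peaks (12.5%, interval 8.55 to 17.9) and 123 of 927 autosomal peaks (13.3%, interval 11.2 to 15.6) had another peak within 2 kb, measured between peak ends, and over all chromosomes 13.1% did. The difference did not pass the test (odds ratio 0.934, interval 0.559 to 1.51; Fisher's exact test, adjusted p = 1.0). The 24 X peaks formed 11 runs, 9 of 2 peaks and 2 of 3 peaks. Among peaks 1 to 559 alone, 2 of 103 X peaks (1.94%) and 10.1% of autosomal peaks had a neighbour (odds ratio 0.177; Fisher's exact test, adjusted p = 0.030). This test counts every member of a run although neighbours come together, so its p-value is likely too small. It was 1 of 44 alternatives, and its adjustment covers 11 tests only.

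Of the 11 X runs, 1 held 2 or more peaks numbered 559 or lower and 8 held a single such peak, whereas 21 of 57 autosomal runs held 2 or more (36.8%) and 27 held a single such peak. The X run with 2, from 12668092 to 12670687, joined numbers 474 and 137. The run of 2 with the best number, from 9465710 to 9467949, joined number 3 and number 876. A run of 3 from 16929424 to 16931111 joined numbers 41, 910 and 728. The other run of 3, from 15274115 to 15277165, joined numbers 448, 646 and 875. In 4 X runs a strong and a weak peak overlapped each other: numbers 10 and 911 by 96 bp, 18 and 839 by 185 bp, 41 and 910 by 247 bp, and 245 and 970 by 248 bp. Both members of each such pair overlapped the same best peak of replicate 1 and of replicate 2. Each member also overlapped 2 replicate 1 peaks and 2 or 3 replicate 2 peaks in all. Whether the members of a pair are separate sites was not tested. These were 4 of 191 adjacent pairs on X, and on the autosomes 12 of 922 adjacent pairs overlapped.

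Nearly all combined X peaks had a peak in both replicates. They numbered 190 of 192 on X (99.0%, interval 96.3 to 99.7) and 918 of 927 on the autosomes (99.0%, interval 98.2 to 99.5), and 99.0% of all combined peaks did (Fisher's exact test, adjusted p = 1.0). Since that list was drawn from these libraries, this is no independent check. The 2 exceptions lacked a replicate 2 peak. Number 628, at 12171845 to 12172294, ranked 264 in replicate 1, and number 980, at 16445799 to 16446248, ranked 407 there.

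Ranks in the replicates followed each other more closely in order on X than on the autosomes, although the distance between them was no smaller. Over the 190 X peaks found in both libraries, Spearman's rho between the replicate numbers was 0.65, and over 918 autosomal peaks it was 0.46, from 0.28 on chromosome V to 0.58 on chromosome III. The higher of the replicate numbers was a median of 2.20 times the lower on X and 1.90 times on the autosomes. These values come from peaks chosen in both libraries and are given without a test. Both numbers were 500 or lower for 72 X peaks (37.5%) and 275 autosomal peaks (29.7%), and chromosome III had a similar share to X at 38.9%. Where a combined peak overlapped several replicate peaks, the lowest number was taken as its rank, on all chromosomes. Combined numbers 839, 910, 911 and 970 on X thus repeated the ranks of the stronger peaks they overlapped. They entered rho and the 72 X peaks in this way. The replicate 1 number was the lower for 115 of the 190 X peaks (60.5%) and for 472 autosomal peaks (51.4%). Medians were 477.5 in replicate 1 and 536.5 in replicate 2 on X, and 583 and 571.5 on the autosomes. On X the median distance to the centre of the matching peak was 17 bp in replicate 1 and 9.5 bp in replicate 2, against 14 and 10 bp on the autosomes.

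**Figure D4:**
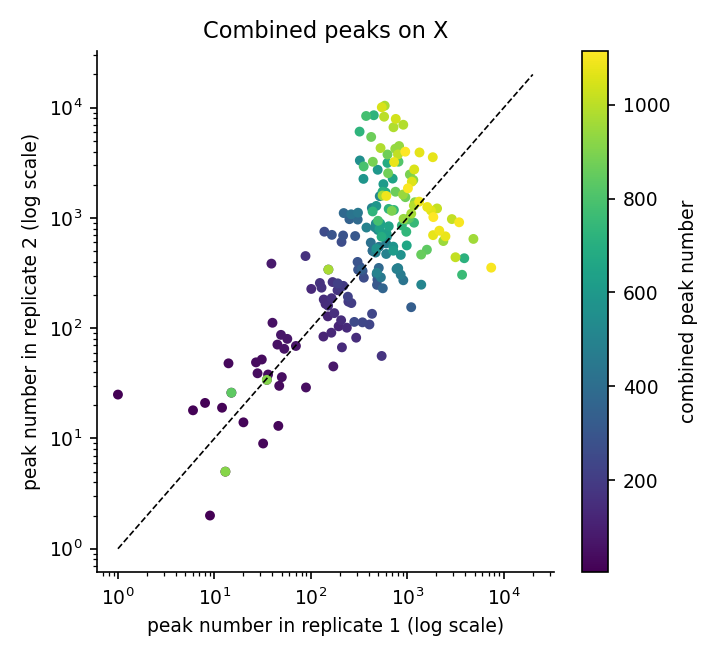
Peak number in replicate 1 (x axis) and in replicate 2 (y axis), both on log scales, for the 190 combined X peaks found in both libraries; colour is the combined peak number and the dashed line marks equal numbers. Points off the line include number 7, with ranks 1 and 25, and sites numbered above 500 spread up to 7410 in replicate 1 and 10417 in replicate 2.

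Some X sites were ranked far apart by the libraries. The numbers differed by more than 4-fold for 40 X peaks (21.1%) and 178 autosomal peaks (19.4%). Number 782, at 8545927 to 8546376, ranked 374 in replicate 1 and 8404 in replicate 2. Number 1102, at 7284698 to 7285147, went the other way, with ranks 7410 and 354. These 2 sites were chosen after their values were seen.

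Over the full replicate lists, agreement on X was near that on the autosomes. Of replicate 1 peaks, 1335 of 3598 on X (37.1%, interval 35.5 to 38.7) and 39.3% on the autosomes overlapped a replicate 2 peak, and 38.8% of all did. Of replicate 2 peaks, 1366 of 3632 on X (37.6%, interval 36.0 to 39.2) and 35.9% on the autosomes overlapped a replicate 1 peak, and 36.2% of all did. Neither difference passed the test (odds ratios 0.912 and 1.08; Fisher's exact test, adjusted p = 0.079 and 0.16), and their signs were opposite. Peaks covered more of X than of the autosomes, 8.24% against 6.44% in replicate 1 and 8.93% against 7.84% in replicate 2, and a larger covered part by itself raises the overlap.

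With shorter lists the agreement on X was lower in replicate 1. Among the first 2000 peaks of each list, 42.9% of replicate 1 peaks on X and 52.3% on the autosomes were in the other list (odds ratio 0.685; Fisher's exact test, adjusted p = 0.0053). Among the first 5000 the shares were 30.9% on X and 39.3% on the autosomes (odds ratio 0.691; Fisher's exact test, adjusted p = 5.1e-06). For replicate 2 the same shares were 48.3% on X and 51.5% on the autosomes, then 35.0% and 38.8%, and neither difference passed (Fisher's exact test, adjusted p = 0.43 and 0.079). Replicate 1 placed 382 of its first 2000 peaks on X and replicate 2 placed 350.

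By rank, all 27 X peaks among the first 100 of replicate 1 and all 30 among the first 100 of replicate 2 were in the other library and in the combined list. The other library also held all 73 autosomal peaks among the first 100 of replicate 1 and all 70 of replicate 2, so this was not particular to X. For peaks 1001 to 2000 of replicate 1 the shared part was 65.1% on X (interval 58.0 to 71.5) and 70.3% on the autosomes, and of replicate 2 it was 61.1% on X (interval 54.0 to 67.7) and 63.3% on the autosomes. From peak 12001 on, replicate 2 had 28.4% of X peaks shared (interval 26.0 to 30.9) and 24.0% of autosomal peaks, while replicate 1 had 26.0% and 27.4%.

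Finally, the 1119 best peaks of each replicate were compared with the combined list. On X, 167 of 218 such peaks of replicate 1 (76.6%, interval 70.6 to 81.7) overlapped a combined peak, and 81.4% on the autosomes did, with 80.4% over all chromosomes (Fisher's exact test, adjusted p = 0.20). In replicate 2, 136 of 190 on X (71.6%, interval 64.8 to 77.5) and 75.2% on the autosomes did, with 74.6% over all chromosomes (Fisher's exact test, adjusted p = 0.43). The best-ranked X peak of replicate 1 with no combined peak was number 530, from 876943 to 877362, and the replicate 2 peak there was number 12346. The best-ranked such peak of replicate 2 was number 450, from 3636810 to 3637265, where replicate 1 listed no peak. On X, 1112 replicate 1 peaks (30.9%) were shared with replicate 2 without reaching the combined list, and on the autosomes 31.5% were. Of replicate 2 peaks, 31.0% on X and 28.7% on the autosomes were shared without reaching it.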

How the data were processed

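The peak lists were deposited by the authors. Per the file headers, the genome build is WormBase WS220; spp_via_IDR stands in the method column, for the SPP caller and then the irreproducible discovery rate (IDR). Each peak has 1 deposited score, whose meaning the files do not give, and a peak number, used here as its rank. The aligner, its filters and the use of input were not given in the sources used here. Samples were grouped by their titles. Peak lists were read for the 2 ChIP libraries and the combined set; the input libraries were not analysed here.

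Peaks overlapping by at least 1 bp were called shared. Chromosome length was the largest peak end in any list. Position was taken from the peak centre. Runs joined adjacent peaks at most 2 kb apart, end to start. Shares carry 95% Wilson intervals, which cover the counting of peaks only. Shares were compared with two-sided Fisher's exact tests and counts with two-sided exact binomial tests, adjusted together by Benjamini-Hochberg with a threshold of 0.05. Under an alternative, only the p-value of that test was replaced before adjustment. Methods were tested on simulated data. The chromosome, comparisons and named sites were chosen with earlier results of these data known. Sites named were the 15 best-numbered X peaks, runs of 3, the best run of 2, peaks missing in a replicate, the best replicate peak outside the combined list, and extreme windows and gaps. The run of numbers 474 and 137, the overlapping pairs and numbers 39, 61, 782 and 1102 were named outside this rule, after their values were seen. The alternatives were other overlaps, list lengths, central parts and distances, merged peaks and single replicates. Tests ran in SciPy 1.17.1 (Python 3.11.15).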

Additional observations from a re-analysis of the deposited data

How the results depend on the processing

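Of 44 alternatives, 23 changed neither the direction nor whether the test passed. The lower central share on X kept both under all 6 of its alternatives. The density ratio turned to 1.05 among peaks 1 to 559 and to 1.14 to 1.29 in the single replicate lists. Most peaks of those lists scored below the lowest combined score, although scores were not shown to share a scale across lists. The left to right ratio of X passed only in the single replicate lists, at 0.867 to 0.870. The X share of peaks in the first 25% of the list passed with merged peaks (34.1%) and was 24.2% in either replicate alone, then slightly below the autosomes. The X share with a neighbour was 7.81% within 1 kb, slightly above the autosomes, 1.94% and past the threshold among peaks 1 to 559, and 63.9% to 64.8% in the single replicate lists, above the autosomes. The X share of replicate 1 peaks found in replicate 2 passed at 28.8% with a reciprocal overlap of 50%, 42.9% among the first 2000 and 30.9% among the first 5000 peaks. In replicate 2 it fell below the autosomes, without passing, at 48.3% among the first 2000 and 35.0% among the first 5000. The X share of combined peaks in both replicates was 59.4% against the first 1000 peaks of each list, above the autosomes, and 99.0% to 100% with 1 replicate left out. Among the first 500 replicate peaks, 100% of replicate 1 and 97.8% of replicate 2 peaks on X were in the combined list, slightly above the autosomes. The cause of these changes was not tested. The alternatives for neighbours by peak centre and for the central share at other rank limits were added after the data were seen and changed no call. No paired analysis was possible because only ChIP peak lists were used here, and no compared groups of samples share replicate numbers. Without read depth, absence from a list does not show that a site is unbound.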

Other observations

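The left end of X combined few replicate peaks with many high-ranked combined peaks. The first 2 Mb of X held 20 combined peaks, of which 12 (60.0%) were numbered 279 or lower, against 49 of 172 (28.5%) on the rest of X. The windows from 0 to 1 Mb and from 1 to 2 Mb had 136 and 147 replicate 1 peaks and 163 and 180 replicate 2 peaks, the lowest counts among the 17 full windows of X. Strong sites there included number 61, at 1344825 to 1345274, with ranks 70 and 69 in replicates 1 and 2. A partly similar pattern was present on chromosomes I and III, so it was not particular to X. On chromosome I the windows from 0 to 1 Mb and from 1 to 2 Mb each held 11 combined peaks, 5 of them numbered 279 or lower. They had 112 and 85 replicate 1 peaks, and 147 and 146 replicate 2 peaks. Replicate 2 was lower elsewhere on that chromosome, with 125 peaks from 12 to 13 Mb. The same windows of chromosome III held 10 and 14 combined peaks, with 4 and 5 numbered 279 or lower, and 129 and 88 replicate 1 peaks. The same windows of chromosome V held 6 and 8 combined peaks, with 1 and 2 numbered 279 or lower. The stretch of X was chosen after its values were seen, and the difference was not tested.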
